A study of Mus musculus with 26 samples.

Results

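Tau, encoded by Mapt, and 9 other genes of microtubule-associated proteins and stathmins were followed in ribosome footprinting and RNA-Seq data of the mouse striatum. The genes are Mapt, Map2, Map4, Map1a, Map1b, Map6, Map7d1, Stmn1, Stmn2 and Stmn3, and they were chosen by name, with no measured value in the rule. Under these symbols 4 of the 10 are listed, and the other 6 are listed under the older symbols Mtap2, Mtap4, Mtap1a, Mtap1b, Mtap6 and Mtap7d1. With both kinds of symbol, all 10 were found among 8576 transcripts in each of the tables of the transgenic mice and 9561 in that of LRRK2 KO mice.

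Microtubules are hollow polymers of tubulin that serve as tracks for transport in axons and dendrites. Structural microtubule-associated proteins bind along the polymer and stabilize it, and neurons sort them, with tau best known from axons and MAP2 from dendrites and cell bodies. Stathmins bind free tubulin dimers instead and favor disassembly, so the set holds proteins with opposite actions on the same polymer.

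All mice were of the C57BL/6 strain, were labeled 3 months old, and gave tissue from the striatum (caudate putamen). LRRK2 is a protein kinase, the G2019S substitution raises its kinase activity, and D1994A inactivates the kinase. Mice with a G2019S LRRK2 transgene (GS LRRK2 TG) and mice with a G2019S/D1994A LRRK2 transgene (GS/DA LRRK2 TG) were each compared with non-transgenic (non-TG control) mice, and LRRK2 knock-out (LRRK2 KO) mice with wild-type (WT) mice. The comparisons ask whether mutant LRRK2, its kinase-dead form or loss of LRRK2 alters translation. Both transgenes are Tet-off constructs from high copy number lines that were driven by CaMKII-tTA, a driver active in forebrain neurons, and were held off by doxycycline until weaning. Each library was made from pooled mice of both sexes, so no value belongs to a single animal, and footprinting and RNA-Seq used portions of the same lysates. The labels list 3 footprinting and 3 RNA-Seq libraries for non-TG control, 2 and 2 for GS LRRK2 TG, 2 and 2 for GS/DA LRRK2 TG, and 3 and 2 each for WT and LRRK2 KO.

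Footprinting sequences the mRNA fragments that ribosomes protect from RNase, and RNA-Seq measured total RNA after removal of rRNA. Each table holds the authors' mean of normalized reads for each group and assay. Translation efficiency (TE) was taken as the log2 ratio of the footprinting mean to the RNA-Seq mean, and a TE difference is the TE of the genotype minus that of its control. A change is the log2 ratio of the genotype's mean to its control's mean. The reads of 2 libraries could be recovered from 10 of the 12 columns of means, and they are called library A and library B, with A the deeper library of the control, or of GS LRRK2 TG where the control was not resolved. Libraries A and B of a genotype were named so that the difference between A and B resembles that of the control. The recovered libraries held 2902028 to 18372588 footprinting reads and 3132517 to 14470201 RNA-Seq reads in coding sequence. Among the 10 genes a library held from 583 reads (Stmn2, RNA-Seq of LRRK2 KO, library B) to 29637 reads (Map1a, RNA-Seq of GS/DA LRRK2 TG, library B). The non-TG control means of the GS LRRK2 TG table were not resolved, so the GS LRRK2 TG changes have no spread on the control side and were not tested.

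Lrrk2 itself was read first as a check of the labels. In LRRK2 KO, normalized Lrrk2 footprints were 102 in library A and 150 in library B against 400 and 690 in WT, and Lrrk2 RNA-Seq was 423 and 270 against 1278 and 733. In GS/DA LRRK2 TG, Lrrk2 footprints were 7267 and 4766 against 1445 and 1224 in non-TG control. In GS LRRK2 TG they were 3320 and 7052 against a control mean of 2524. In direction, these footprinting and LRRK2 KO values follow the labels. The control means of the transgenic tables, which were normalized separately, were not alike, however, with 2524 Lrrk2 footprints in the GS LRRK2 TG table against 1335 in that of GS/DA LRRK2 TG, beside 4321 and 5255 Mapt footprints, and GS LRRK2 TG library A lay nearer to its control mean than library B. Lrrk2 RNA-Seq did not follow the labels in the transgenic lines, with 5038 and 404 in GS/DA LRRK2 TG against 5233 and 560 in non-TG control, and 3550 and 214 in GS LRRK2 TG against a control mean of 2105. RNA-Seq and TE differences of these lines are therefore differences between libraries labelled GS LRRK2 TG or GS/DA LRRK2 TG and libraries labelled control.

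The tissue label was checked against marker genes. All 10 listed markers of striatal neurons were measured in the 3 tables, and the most abundant, Ppp1r1b (DARPP-32), stood at percentile 99.7 of control footprinting in each. Markers of cortical excitatory neurons were also present, 4 of 6 in the transgenic tables and 6 of 6 in the LRRK2 KO table, with Nrgn the most abundant. None of the 4 endothelial markers was among the transcripts of these tables. In such bulk tissue, fewer cells of a type and less RNA per cell cannot be told apart.

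The genes differed far more among themselves than between genotypes. Per kilobase of coding sequence, the stathmins stood highest in footprinting, with 6082 normalized reads per kilobase for Stmn3, 5291 for Stmn1 and 2432 for Stmn2 in WT. Map4, a widely expressed microtubule stabilizer, was lowest at 154, and Map6 next at 325. Coding length was that of all annotated isoforms merged, 8160 bases for Map4, 2718 for Map6 and 2375 for Mapt. Before division by length, the WT footprinting mean was 1260 for Map4 and 884 for Map6. Isoforms in the tissue may be shorter than the merged length, so the order also rests on that length, and this was not tested. In the footprinting of WT the libraries of neighboring genes did not overlap in this order, except Map2 with Map1b and Mapt with Map1a. Mapt had 732 and Map2 had 1251 footprinting reads per kilobase in WT. In all groups whose libraries were resolved, Stmn3 and Stmn1 held the top ranks of both assays and Map4 the lowest. Between these and Map6, which ranked just above Map4, neighbors in the RNA-Seq order overlapped between libraries, so that part of the order is not resolved, except that Mapt and Map6 did not overlap in WT and LRRK2 KO.

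TE ordered the genes differently from their levels. In the control of the GS/DA LRRK2 TG table, TE was 1.25 for Map2 (percentile 94.5 of all transcripts), 1.09 for Map1b (92.0), 0.96 for Stmn2 (89.2) and 0.92 for Mapt (88.2), so these mRNAs carried many footprints for their RNA level. At the other end, TE was -0.17 for Map1a (percentile 39.1) and -0.81 for Map7d1 (15.9). In WT the order was Stmn2 (TE 0.51, percentile 98.9), Map1b (0.33, 96.9), Map2 (0.23, 94.9), with Map7d1 last again (-1.42, 15.7). Map7d1, which recruits kinesin to microtubules, had the lowest TE of the 10 in each of the groups by the group means. The range that the libraries allow, from the lowest footprinting over the highest RNA-Seq library to the reverse, was wide. In the non-TG control of the GS/DA LRRK2 TG table it ran from -1.56 to 0.28 for Map7d1 and from -0.21 to 0.67 for Stmn1, so the last place of Map7d1 there was not resolved between libraries. In WT every gene overlapped with its neighbor in the order, from Stmn2 (-0.15 to 1.33) and Map1b (-0.35 to 0.89) to Map1a (-1.17 to -0.26) and Map7d1 (-1.70 to -1.08), so the WT order was not resolved either. In LRRK2 KO it ran from -0.52 to 1.41 for Map2 and from -1.82 to -1.40 for Map7d1, and neighbors in the order overlapped there except Map4 with Map6 and Map1a with Map7d1.

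**Figure D1:**
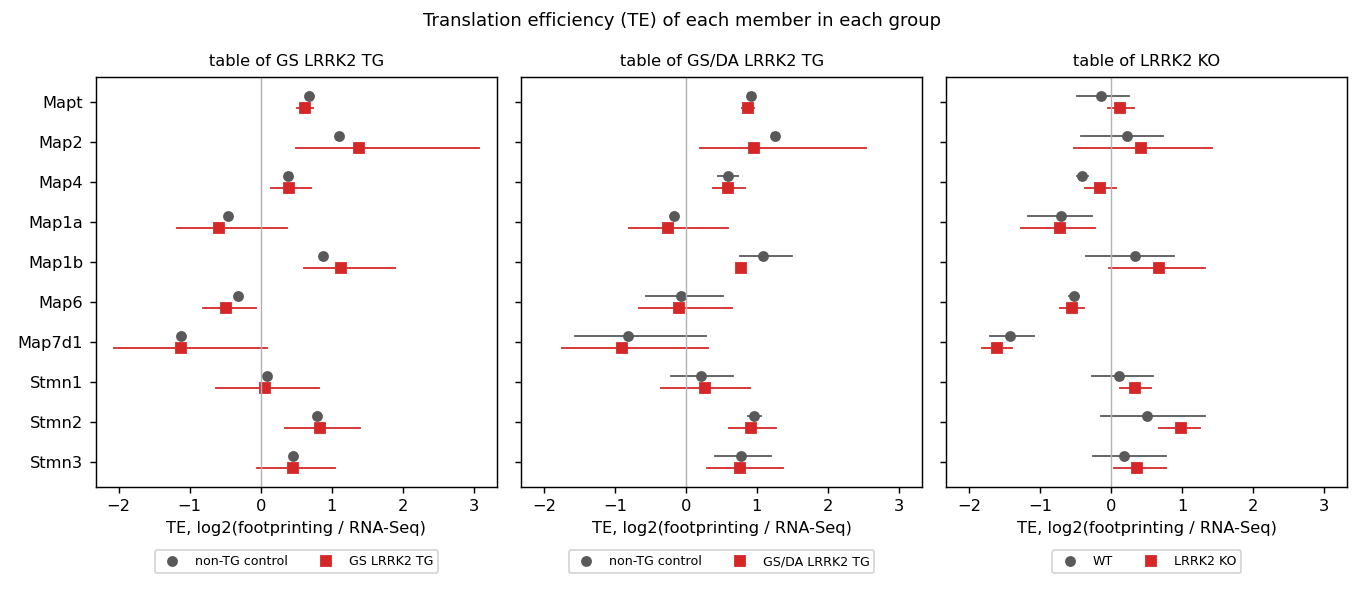
TE of the 10 genes (log2, footprinting over RNA-Seq, from group means) in control (circles) and genotype (squares) of each table, with lines for the range allowed by the recovered libraries and no line where a column was not resolved for a gene. Map7d1 lies lowest in every panel, at -1.13 in the control of the GS LRRK2 TG table and -1.42 in WT.

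In GS LRRK2 TG, group means of the 10 genes lay close to those of the control. The median footprinting change was 0.06 (range -0.05 to 0.12) against 0.00 for all transcripts, and 7 of the 10 lay within the quartiles of all transcripts. No gene reached a footprinting change of 0.25 in either direction, a size that 3.32% of all transcripts exceeded upward and 3.21% downward. The median RNA-Seq change was 0.07 and none of the 10 passed 0.25, against 4.02% of transcripts higher and 15% lower. This median was -0.10 without GS LRRK2 TG RNA-Seq library B and 0.24 without library A. A value without a library, here and below, sets a lone library against a group mean. It therefore includes the difference between libraries A and B. In TE, Map2 (0.28) was the only gene past 0.25, where 17% of transcripts were higher and 5.24% lower, and the median of the 10 was 0.01. The TE median was -0.17 without GS LRRK2 TG RNA-Seq library A and 0.14 without library B.

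In GS/DA LRRK2 TG, footprinting changes of Stmn1 (0.33) and Stmn2 (0.31) passed 0.25, and none passed -0.25, against 3.67% and 3.35% of all transcripts. The median footprinting change of the 10 was 0.11, with 9 above 0, and only 2 lay within the quartiles of all transcripts (-0.08 to 0.07). RNA-Seq changes of Map1b (0.45), Map2 (0.40), Stmn2 (0.35) and Stmn1 (0.27) passed 0.25 and none passed -0.25, against 14.2% and 2.59% of transcripts, and the median was 0.20 against 0.06 for all transcripts. Without GS/DA LRRK2 TG RNA-Seq library B the median was -0.25 over 9 genes, since Map1b was not resolved there. Without control RNA-Seq library A the median of the 10 was -0.01. TE differences of Map1b (-0.31) and Map2 (-0.30) were below -0.25 and none was above 0.25, against 13.2% and 1.48% of transcripts, and the median of the 10 was -0.05, as it was for all transcripts. Over the 9 genes other than Map1b, the TE median was 0.21 without GS/DA LRRK2 TG RNA-Seq library B and -0.19 without library A. Both transgenic comparisons draw on the group labelled non-TG control, and which of its libraries entered which table is not given in the sources used here, so they may share libraries. Their values for the 10 genes are set side by side and were not combined.

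In LRRK2 KO, no footprinting change passed 0.25 in either direction, against 8.39% of transcripts higher and 7.01% lower, and the median was -0.02 (-0.20 without LRRK2 KO footprinting library B and 0.12 without library A). RNA-Seq changes of Stmn2 (-0.55), Stmn1 (-0.33), Stmn3 (-0.31) and Mapt (-0.29) were below -0.25, where 13.4% of transcripts lay, and none was above 0.25, where 12% lay. The median RNA-Seq change of the 10 was -0.19 against 0.01 for all transcripts, and it was 0.02 without WT RNA-Seq library B. TE differences of Stmn2 (0.47), Map1b (0.34), Mapt (0.28) and Map4 (0.25) passed 0.25 and none passed -0.25, against 18.1% and 15% of transcripts, with a median of 0.21 against 0.02, and the median of the 10 was 0.01 without WT RNA-Seq library B and 0.40 without WT RNA-Seq library A. The footprinting changes of these 4 were -0.07, 0.16, -0.01 and 0.05 and their RNA-Seq changes -0.55, -0.17, -0.29 and -0.20, so only for Map1b did footprinting and RNA-Seq contribute nearly equally.

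**Figure D2:**
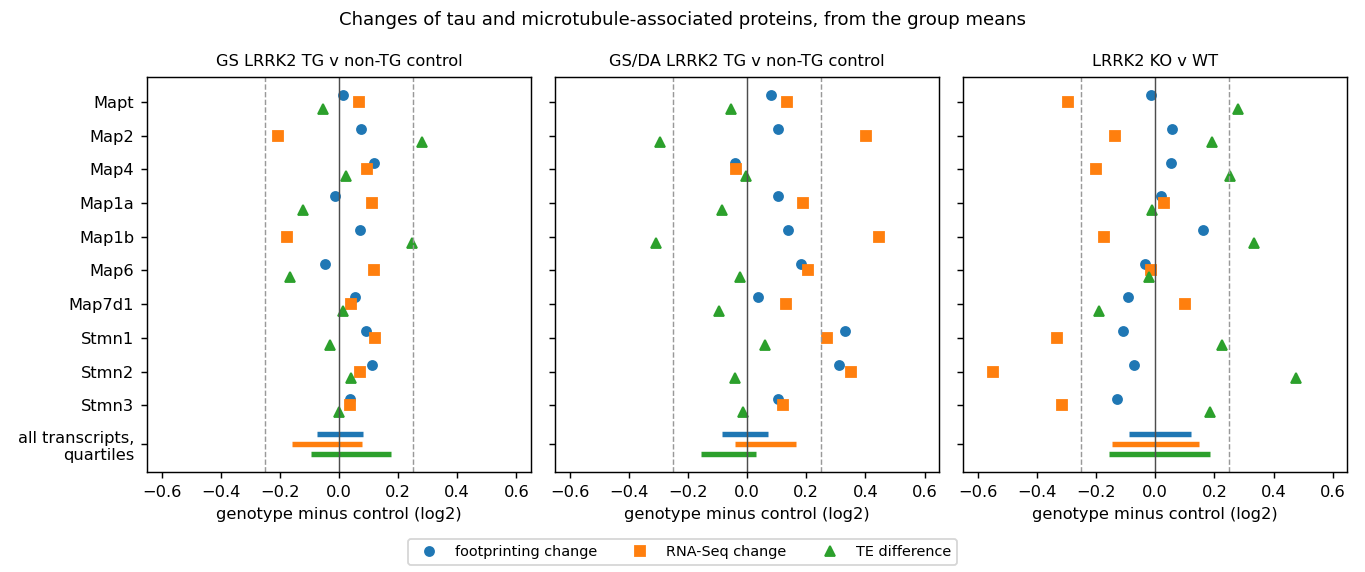
Footprinting change, RNA-Seq change and TE difference (log2, genotype minus control) of the 10 genes in the 3 comparisons, from the authors' group means, with thick bars for the quartiles of all transcripts and dashed lines at 0.25 and -0.25. In LRRK2 KO the RNA-Seq changes of Stmn2 (-0.55), Stmn1 (-0.33), Stmn3 (-0.31) and Mapt (-0.29) lie left of the dashed line, and their footprinting changes (-0.07, -0.11, -0.13 and -0.01) lie between the dashed lines.

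Mapt encodes tau, which binds axonal microtubules and aggregates in tauopathies. Mapt footprints (uc007lwe.1) were 5244 and 5265 in the non-TG control libraries A and B and 5544 and 5574 in GS/DA LRRK2 TG. The groups did not overlap, which held for 24.3% of the transcripts resolved, and the change of the means was 0.08. Mapt RNA-Seq was 2693 and 2850 in non-TG control and 2874 and 3211 in GS/DA LRRK2 TG, again without overlap, against 3.38% of transcripts, and the TE difference was -0.05. In the GS LRRK2 TG table, Mapt footprints were 4484 and 4246 around a control mean of 4321, and Mapt RNA-Seq was 2680 and 2964 around a control mean of 2690. The control mean thus lay between the libraries in both assays.

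In the LRRK2 KO table, Mapt footprints were 1812 and 1663 in WT and 1756 and 1683 in LRRK2 KO. Mapt RNA-Seq was 1529 and 2325 in WT and 1405 and 1739 in LRRK2 KO. Both assays overlapped between the groups, and for RNA-Seq only WT library B stood above all others. Without that library the Mapt RNA-Seq change was 0.04 in place of -0.29 and its TE difference -0.06 in place of 0.28.

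Map2 encodes the main microtubule-associated protein of dendrites. Its RNA-Seq values were dominated by the difference between libraries, with 10625 in library A and 3271 in library B of non-TG control and 15249 and 3104 in GS/DA LRRK2 TG. Library A was 3.25 and 4.91 times library B, and the groups overlapped. Leaving out GS/DA LRRK2 TG library B gave a Map2 RNA-Seq change of 1.13, leaving out its library A one of -1.16, in place of 0.40. Leaving out control library A gave 1.49 and control library B -0.21, and the TE difference of -0.30 then ran from -1.38 to 1.27. These values set a lone library against a group mean, so they include the gap between libraries A and B. Between matched libraries, the Map2 RNA-Seq change was 0.52 for A and -0.08 for B, so the pairs differed in direction. In GS LRRK2 TG, Map2 RNA-Seq was 9014 and 1846 against a control mean of 6265, and the TE difference of 0.28 was likewise -0.45 without library B and 1.84 without library A.

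In the transgenic tables, Map2 footprints were more even between libraries than its RNA-Seq. They were 18069 and 17454 in GS/DA LRRK2 TG against a control mean of 16511 that was not resolved for Map2, a change of 0.11. In LRRK2 KO they were 5458 and 10075 against 5066 and 9871 in WT, with library B higher by 1.95 times in WT and 1.85 times in LRRK2 KO, the widest footprinting gaps of the 10 genes, and a change of 0.06. Map2 RNA-Seq in LRRK2 KO was 7842 and 3782 against 6824 and 5945 in WT, overlapping.

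Map4 footprints were 4496 and 4358 in GS/DA LRRK2 TG and 4775 and 4344 in non-TG control, and RNA-Seq was 2533 and 3329 against 2859 and 3160. In LRRK2 KO, Map4 RNA-Seq was 1575 and 1330 and in WT 1591 and 1744, which did not overlap, as for 14.1% of transcripts. Its change was -0.20, and from -0.33 to -0.08 when each library was left out, but between matched libraries it was -0.01 for A and -0.39 for B, while Map4 footprints overlapped at 1225 and 1390 against 1253 and 1267. Map4 was the only 1 of the 10 whose LRRK2 KO TE difference (0.25) kept its sign when each library was left out in turn, with a range of 0.14 to 0.38.

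Map1a and Map1b bind microtubules in mature and in growing processes, respectively. Map1b footprints were 19384 and 19837 in non-TG control, with a GS/DA LRRK2 TG mean of 21563 that was not resolved for Map1b. Map1b RNA-Seq was 11398 and 7065 in non-TG control, with a GS/DA LRRK2 TG mean of 12579, above both control libraries. Leaving out each control library gave Map1b RNA-Seq changes of 0.14 and 0.83 in place of 0.45, so the size of this change rests on library A or B of the control.

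In LRRK2 KO, Map1b footprints were 7510 and 12737 against 6274 and 11822 in WT, and Map1b RNA-Seq was 7664 and 5079 against 6379 and 7991. Both overlapped, and the TE difference of 0.34 was -0.10 without LRRK2 KO footprinting library B, -0.05 without WT footprinting library A and 0.86 without WT footprinting library B. Map1a showed the reverse library pattern to Map1b and Map2, with RNA-Seq of 8208 in library A and 24459 in library B of non-TG control and 10562 and 26705 in GS/DA LRRK2 TG. Map1a footprints were even in GS/DA LRRK2 TG, at 15941 and 15320 around a change of 0.10. They were less even in the LRRK2 KO table, at 5144 and 8191 in LRRK2 KO and 5467 and 7698 in WT. The Map1a changes there were 0.02 in footprinting, from -0.36 to 0.32 when each library was left out, and 0.03 in RNA-Seq, from -0.16 to 0.25.

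Map6 encodes the protein that keeps neuronal microtubules stable in the cold. Map6 footprints were 1877 and 2227 in non-TG control and 2138 and 2518 in GS/DA LRRK2 TG, an overlap, with a change of 0.18. In LRRK2 KO they were 774 and 953 against 892 and 875 in WT. Its RNA-Seq changes were 0.12, 0.21 and -0.01 in GS LRRK2 TG, then GS/DA LRRK2 TG, then LRRK2 KO. Map7d1 footprints were 2939 and 4069 in GS/DA LRRK2 TG and 2976 and 3858 in non-TG control, and 1000 and 1165 in LRRK2 KO against 1168 and 1139 in WT, so both overlapped. Map7d1 TE differences were 0.01, -0.10 and -0.19 in the same order, the last of them the lowest of the 10 in LRRK2 KO. When each library was left out in turn, they ran from -0.53 to 0.89, from -1.01 to 0.90 and from -0.51 to 0.07.

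The stathmins bind tubulin dimers, and Stmn2 is a growth-associated protein of neurons. Stmn2 footprints were 2856 and 2733 in non-TG control and 3678 and 3247 in GS/DA LRRK2 TG, and Stmn2 RNA-Seq was 1497 and 1369 against 2133 and 1525. Neither assay overlapped between the groups, and Mapt and Stmn2 were the genes without overlap in footprinting (2 of 7 resolved, against 24.3% of transcripts) and in RNA-Seq (2 of 9 resolved, against 3.38%). The Stmn2 footprinting change ranged from 0.22 to 0.40 and the RNA-Seq change from 0.09 to 0.57 when each library was left out, the lowest RNA-Seq value without GS/DA LRRK2 TG library A. With changes of like size in both assays, the Stmn2 TE difference was -0.04.

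Stmn1 footprints were 5377 and 4230 in non-TG control and 7344 and 4734 in GS/DA LRRK2 TG, and overlapped. The change of 0.33 was -0.02 without GS/DA LRRK2 TG library A. Stmn1 RNA-Seq overlapped too, with 4894 and 3383 against 6062 and 3918, and its change of 0.27 was -0.08 without GS/DA LRRK2 TG library A. Stmn3 footprints were 9388 and 8395 in non-TG control and 9949 and 9189 in GS/DA LRRK2 TG, a change of 0.11. In GS LRRK2 TG, footprints of libraries A and B were 3515 and 5289 for Stmn1 (control mean 4133), 2311 and 2930 for Stmn2 (control mean 2424) and 6601 and 8283 for Stmn3 (control mean 7248), with each control mean between them.

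In LRRK2 KO the stathmins had the lowest RNA-Seq changes of the 10. Stmn2 RNA-Seq was 699 and 772 in LRRK2 KO and 692 and 1457 in WT. WT library B stood apart, and without it the change was 0.09 in place of -0.55 and the TE difference -0.16 in place of 0.47, while without WT library A the change was -0.99. The same held for Stmn1, with 1569 and 1981 against 1633 and 2842 and a change of 0.12 without WT library B, and for Stmn3, with 1899 and 2940 against 2080 and 3937 and a change of 0.22 without it. Library B was the higher in both groups for these genes, and set against the matched library of WT, the changes in libraries A and B were -0.06 and -0.52 for Stmn1, -0.13 and -0.42 for Stmn3, -0.12 and -0.42 for Mapt, and 0.01 and -0.92 for Stmn2. Of the 10 genes, 4 were lower in both matched libraries (Mapt, Map4, Stmn1 and Stmn3), as were 23.6% of transcripts, and 1 was higher in both, as were 24.5%. With the opposite matching, chosen after seeing the data, the changes were 0.28 and -0.86 for Stmn1 and 0.19 and -0.73 for Mapt. Footprints of Stmn1 were 2322 and 2167 in LRRK2 KO and 2470 and 2366 in WT, and those of Stmn3 were 3014 and 3240 against 3549 and 3287. These were the 2 of 10 genes whose footprinting groups did not overlap, as for 12.6% of transcripts, with changes of -0.11 and -0.13. Stmn2 footprints overlapped at 1237 and 1667 against 1317 and 1737.

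**Figure D3:**
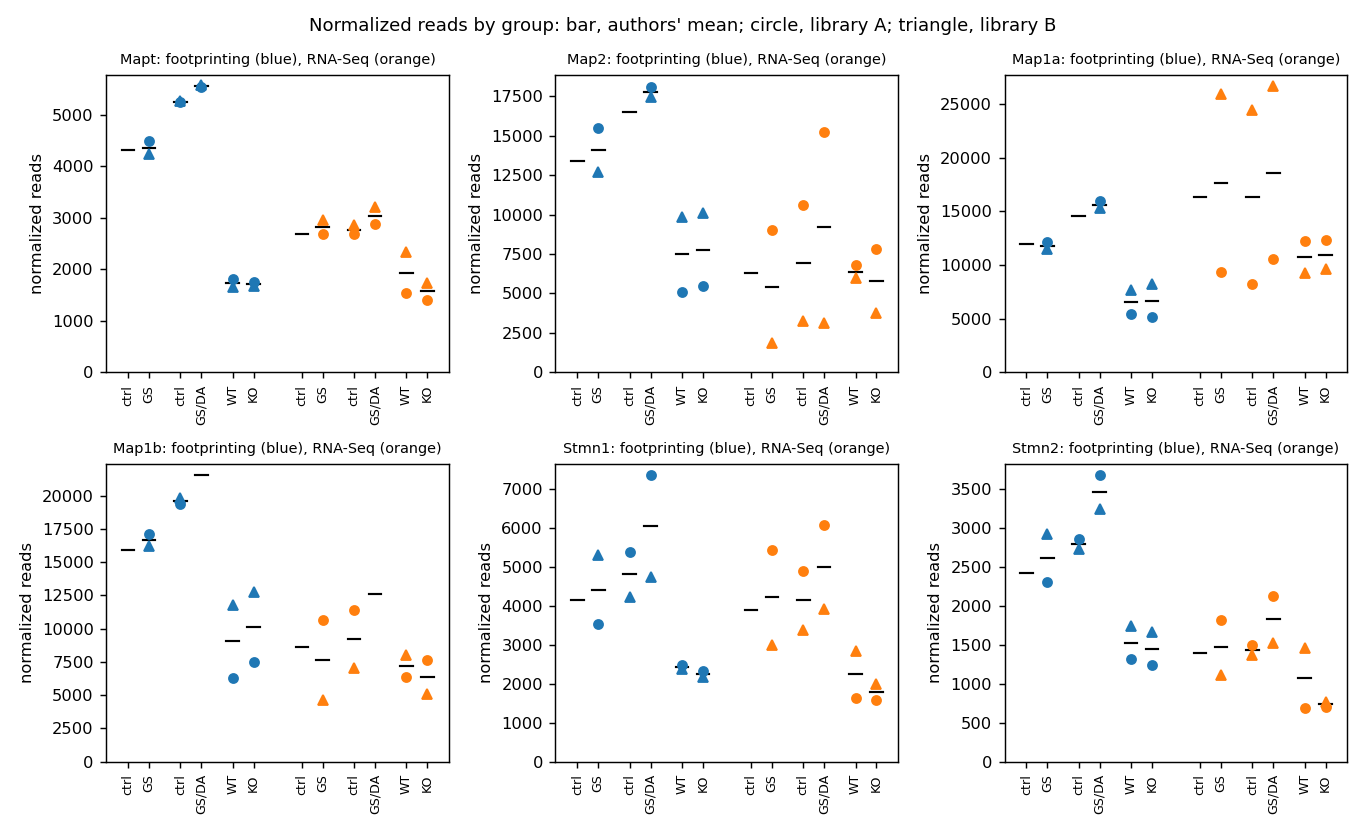
Normalized reads of 6 of the genes in each group (ctrl, non-TG control of the same table), for footprinting (blue) and RNA-Seq (orange), with bars for the authors' means, circles for library A and triangles for library B where they were recovered. Stmn2 RNA-Seq of WT library B (1457) lies apart from the other LRRK2 KO and WT libraries (692 to 772), and Map2 RNA-Seq in the transgenic tables spreads from 1846 to 15249.

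Over the whole set, few signs were kept when a library was left out. This step sets a lone library against a group mean, so a sign can turn through a difference between A and B that both groups share. Map1a RNA-Seq in GS/DA LRRK2 TG was higher in both matched libraries (0.36 and 0.13) but ran from -0.63 to 1.18 here. The counts below therefore do not show that the genotype changes were unstable. When each recovered library was left out in turn, the footprinting change kept its sign in 3, 7 and 2 of the 10 genes in GS LRRK2 TG, then GS/DA LRRK2 TG, then LRRK2 KO. The RNA-Seq change kept it in 0, 3 and 1, and the TE difference in 0, 1 and 1. The share of all transcripts that kept their sign was not computed, so these counts do not set the 10 genes apart from other transcripts. In GS LRRK2 TG only its own libraries could be left out, and in GS/DA LRRK2 TG the footprinting of Map2, Map1a and Map1b and the RNA-Seq of Map1b could be left out on 1 side only, which covers 3 of those 7 footprinting changes, 1 of the 3 RNA-Seq changes (Map1b) and the 1 TE difference (Map1b). That TE difference was -0.01 without control RNA-Seq library B and -0.70 without library A. Between matched libraries in the GS/DA LRRK2 TG table, 5 of 7 resolved genes were higher than control and 0 lower in both pairs for footprinting, against 28.3% and 32.3% of transcripts, and 6 of 9 were higher and 0 lower for RNA-Seq, against 21.6% and 16.1%. With the opposite matching, chosen after seeing the data, only Mapt and Stmn2 were higher in both pairs, in each assay.

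Tests were made with limma across all resolved transcripts of a table, with Benjamini-Hochberg adjustment over them, and their p-values measure the spread between these libraries, which may be technical. At an adjusted p under 0.05, limma called 0 of 8428 transcripts for footprinting, 0 of 8495 for RNA-Seq and 0 of 8403 for TE in GS/DA LRRK2 TG (0% each), and 0 of 9533, 0 of 9533 and 0 of 9530 in LRRK2 KO. At an unadjusted p under 0.05 there were 155, 0 and 0 in GS/DA LRRK2 TG and 16, 7 and 4 in LRRK2 KO, none of them among the members tested. Lrrk2, whose footprints differed severalfold with genotype, was not called either (limma adjusted p 0.737 for footprinting in GS/DA LRRK2 TG), so a count of 0 calls does not show that the genes were equal. Its unadjusted limma p was 8.7e-05 for that footprinting, and 0.0046 for footprinting and 0.0097 for RNA-Seq in LRRK2 KO. In the remaining fits without a block it was above 0.05. Of the 10 genes, 7 could be tested for footprinting and TE in GS/DA LRRK2 TG (not Map2, Map1a and Map1b), 9 for RNA-Seq (not Map1b), and all 10 in LRRK2 KO. Standard errors of their log2 changes ran from 0.11 to 0.24 for footprinting and from 0.46 to 1.11 for RNA-Seq in GS/DA LRRK2 TG, and from 0.20 to 0.49 and from 0.25 to 0.41 in LRRK2 KO.

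A block for libraries matched between groups by their shared difference brought limma's calls to 25 transcripts for GS/DA LRRK2 TG footprinting (0.297%), 15 for LRRK2 KO footprinting (0.157%) and 11 for LRRK2 KO RNA-Seq (0.115%), with 0 in the other 3. At an unadjusted p under 0.05 these fits held 1189, 136 and 34 transcripts in GS/DA LRRK2 TG and 304, 396 and 186 in LRRK2 KO, in the order footprinting, RNA-Seq and TE. Among the members tested, 3 of 7 were under that unadjusted threshold for GS/DA LRRK2 TG footprinting (Stmn2, Stmn1 and Map6), against 14.1% of transcripts, and 1 of 10 for LRRK2 KO RNA-Seq (Stmn2), against 4.15%, and none was called. With the opposite matching, chosen after seeing the data, no member tested was under that threshold in any fit. Lrrk2 was called with the block for GS/DA LRRK2 TG footprinting (limma adjusted p 0.00184) and for both assays in LRRK2 KO. Nearest to the threshold were the GS/DA LRRK2 TG footprints of Stmn2 (0.31 with a standard error of 0.07, limma adjusted p 0.175) and Stmn1 (0.31 with a standard error of 0.09, limma adjusted p 0.229), higher in both matched libraries. Without the block their standard errors were 0.12 and 0.24 and their limma adjusted p was 1.00.

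The difference between libraries A and B was related to base composition. Across transcripts of the transgenic tables, the A to B ratio of RNA-Seq had a Spearman rho of -0.79 with the GC content of the coding sequence in GS LRRK2 TG, -0.78 in non-TG control and -0.80 in GS/DA LRRK2 TG. In the LRRK2 KO table it was -0.04 in WT and -0.28 in LRRK2 KO. The A to B ratio of footprinting had a rho with GC content of 0.30 in GS LRRK2 TG, -0.43 in non-TG control, -0.47 in GS/DA LRRK2 TG, 0.54 in WT and 0.23 in LRRK2 KO. These are descriptions across genes, which are not independent replicates. Among the 10 genes, Map2 had the lowest GC content (48.1%) and, in library A against B, RNA-Seq ratios of 4.88, 3.25 and 4.91 in those groups, while Map7d1 had the highest (64.1%) and was 2.69, 2.76 and 2.98 times higher in B. The median GC content over all genes was 52.9%. Not all of the 10 genes followed their GC content. Mapt (58.3%) was only 1.11, 1.06 and 1.12 times higher in B in those groups, and Map1a (57.0%) was 2.77, 2.98 and 2.53 times higher. The TE difference itself had a rho with GC content of -0.46 in GS LRRK2 TG, 0.16 in GS/DA LRRK2 TG and -0.29 in LRRK2 KO, and the part of base composition in the TE differences of the 10 genes was not tested.

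Neuronal markers were read beside these changes. Of 8 markers of all neurons, 3 had RNA-Seq changes below -0.25 in LRRK2 KO and none above 0.25, against 13.4% and 12% of transcripts. The 3 were Snap25 (-0.46, the most abundant), Syt1 (-0.46) and Syn1 (-0.31). The summed RNA-Seq level of all 8 was 24880 and 45205 in the WT libraries A and B and 25471 and 33088 in LRRK2 KO. WT library B was thus high here as it was for Mapt and the stathmins. The summed footprinting level of these 8 was 39404 and 37244 in WT and 37710 and 35906 in LRRK2 KO. The part of this library, or of the amount of neuronal RNA in it, in the RNA-Seq changes of Mapt and the stathmins was not tested beyond the values without it given above.

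In GS/DA LRRK2 TG, 3 of the 4 measured markers of cortical excitatory neurons were higher in footprinting and in RNA-Seq, with footprinting means of 833 in non-TG control and 2047 in GS/DA LRRK2 TG for Slc17a7, 390.0 and 1044 for Tbr1 and 119 and 248 for Neurod6, while Nrgn, the most abundant, had a change of -0.22. Of all transcripts, 3.67% were higher by 0.25 in footprinting and 14.2% in RNA-Seq. The summed footprinting level of the 3 markers resolved, without Nrgn, was 1630 and 1056 in non-TG control and 4104 and 2574 in GS/DA LRRK2 TG. With Nrgn, the summed footprinting means of all 4 were 20560 in non-TG control and 19833 in GS/DA LRRK2 TG. The summed RNA-Seq level of all 4 was 2296 and 14906 against 3685 and 17663. Of the 10 markers of striatal neurons, 4 had footprinting changes below -0.25 and none above 0.25, against 3.35% and 3.67% of transcripts. The summed footprinting level of the 7 resolved was 44339 and 46707 in non-TG control and 36102 and 43307 in GS/DA LRRK2 TG. This sum leaves out Ppp1r1b, Penk and Pde10a, which are among those 4. The summed footprinting means of all 10 were 148719 in non-TG control and 120152 in GS/DA LRRK2 TG. Whether the share of cortical tissue bears on the Stmn1, Stmn2, Map1b and Map2 values was not tested. In GS LRRK2 TG the cortical markers had a median footprinting change of -0.23 and RNA-Seq change of -0.38. In LRRK2 KO the 6 cortical markers had medians of 0.00 in footprinting, -0.21 in RNA-Seq and 0.27 in TE. Of them, 2 had RNA-Seq changes below -0.25 and none above 0.25, against 13.4% and 12% of transcripts. TE differences were above 0.25 in 4 and below -0.25 in none, against 18.1% and 15%. Whether this bears on the LRRK2 KO values of the 10 genes was not tested.

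Other cell types were read in the same way, by their authors' means in footprinting and, for LRRK2 KO, in RNA-Seq. Oligodendrocyte markers (8 of 8 measured) had median footprinting changes of 0.20, 0.05 and -0.05 in GS LRRK2 TG, then GS/DA LRRK2 TG, then LRRK2 KO, astrocyte markers (8 of 8, Aldoc most abundant) 0.07, 0.09 and -0.12, and microglia markers (Csf1r; 5, 5 and 6 of 7) 0.07, 0.12 and 0.12. Choroid plexus markers (2 of 4, Ttr) had medians of -1.38, -0.94 and -0.03, and their summed footprinting level was 1489 and 17613 in the non-TG control libraries A and B of the GS/DA LRRK2 TG table, so they were very uneven within a group. In the LRRK2 KO table, libraries A and B also differed in the summed footprinting level of microglia markers, with 707 and 116 in WT and 812 and 120.3 in LRRK2 KO, and of astrocyte markers, with 10253 and 5445 in WT and 10618 and 4760.1 in LRRK2 KO, and the part of this difference in the values of the 10 genes was not tested. Blood markers (2 of 5, Hba-a2) had medians of -0.08, -0.32 and -0.66, and their summed footprinting level was 3918 and 1006 in WT libraries A and B against 1976 and 1113 in LRRK2 KO, so WT library A stood apart. In RNA-Seq of LRRK2 KO the medians were -0.11 for oligodendrocyte, -0.15 for astrocyte, 0.24 for microglia, -0.39 for choroid plexus and -0.28 for blood markers. Their part in the RNA-Seq changes of the 10 genes was not tested.

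The predicted folding energy of the 5′ leader differed widely among the 10 mRNAs. By the authors' table, Map6 had the most stable leader (-548 kcal/mol, percentile 2.16 in the transgenic tables) and Stmn2 the least (-12.1 kcal/mol, percentile 92.5), against a median of -91.2 kcal/mol. Map6 TE differences were -0.16, -0.02 and -0.02 and those of Stmn2 0.04, -0.04 and 0.47 in GS LRRK2 TG, then GS/DA LRRK2 TG, then LRRK2 KO. Across all transcripts the rho of folding energy with the TE difference was -0.08, 0.11 and 0.07.

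Bases around the start codon are shown for the genes with the highest and lowest TE and for Mapt, because these bases are part of the known signal for initiation, in which a purine 3 bases before the ATG and a G after it favor recognition. The sequences were read from annotated spliced transcripts, 5′ to 3′ on the coding strand, with the ATG in capitals. Places of the ATG are given on the NCBIM37 (mm9) genome, where the bases around it need not adjoin it. The start codons lie at chr1:66427086-66427088 (Map2, plus strand), chr13:100286440-100286442 (Map1b, minus strand), chr3:8509612-8509614 (Stmn2, plus strand), chr11:104143695-104143697 (Mapt, plus strand), chr2:121115371-121115373 (Map1a, plus strand) and chr4:125933304-125933306 (Map7d1, minus strand). Each is the start of most annotated transcripts of its gene, except Map1a and Map1b, where it is that of 1 of 2.
Map2: gagatctgaaagATGgccga
Map1b: agagccggcaggATGgcgac
Stmn2: cacatccctacaATGgctaa
Mapt: ctttgaaccagtATGgctga
Map1a: gcgggagtttccATGgcgac
Map7d1: gacgccgcagccATGgagag
All 10 genes have a G after the ATG, and 9 of 10 a purine 3 bases before it, Map1a with a T being the exception. Both features together occur in 41.3% of 19565 annotated genes, a G after the ATG in 49.4% and the purine in 84.0%. Map7d1, with the lowest TE, has both, and so has Map2.

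Among the 1674 transcripts whose means reached 500 in each column, those most like Mapt over the 6 footprinting and RNA-Seq changes were Herc3 (Euclidean distance 0.0852), Ndrg3 (0.0986) and Cadm3 (0.101). Their LRRK2 KO RNA-Seq changes were -0.22, -0.28 and -0.37 and their footprinting changes -0.00, -0.01 and -0.01, beside -0.29 and -0.01 for Mapt. Of the other 9 genes, Stmn3 came nearest to Mapt (0.125, rank 14), and the rest ranked from 309 to 1089.

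Other genes of the microtubule system were read as lists. Of 32 other microtubule proteins, 30 were measured in the transgenic tables and 31 in the LRRK2 KO table, the exceptions being Map7d3 and, in the transgenic tables, Dcx. Past 0.25 in footprinting were 1 up and 0 down in GS LRRK2 TG (Macf1, 0.28), 0 and 0 in GS/DA LRRK2 TG, and 1 and 1 in LRRK2 KO (Nav1, 0.26, and Clip2, -0.28). In RNA-Seq these counts were 1 and 6 (highest Tppp3, 0.45, lowest Map9, -0.51), 10 and 0 (highest Clip1, 0.52), and 1 and 4 (highest Macf1, 0.32, lowest Dpysl2, -0.59). All transcripts gave 3.32% and 3.21%, 3.67% and 3.35%, and 8.39% and 7.01% in footprinting, in the same order. They gave 4.02% and 15%, 14.2% and 2.59%, and 12% and 13.4% in RNA-Seq, and in TE 17% and 5.24%, 1.48% and 13.2%, and 18.1% and 15%. The median RNA-Seq change of these proteins in GS/DA LRRK2 TG was 0.17, beside 0.20 for the 10 genes and 0.06 for all transcripts. In TE the counts were 9 and 1 (highest Clip1, 0.59), 0 and 4 (lowest Map9, -0.53), and 2 and 3 (highest Dpysl2, 0.59, lowest Macf1, -0.32).

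Tau kinases and phosphatases, enzymes that add or remove phosphate on tau, were measured in 19 of 21. Past 0.25 were 0 up and 0 down, 0 and 1 (Ppp2r2a, -0.26), and 0 and 0 in footprinting in GS LRRK2 TG, then GS/DA LRRK2 TG, then LRRK2 KO, and 0 and 2, 1 and 0, and 2 and 1 in RNA-Seq, with Ttbk1 highest (0.31) and Cdk5r1 lowest (-0.27) in LRRK2 KO. TE counts were 3 and 0 (highest Ppp2r2b, 0.33), 0 and 1 (Ttbk2, -0.33), and 0 and 2 (lowest Ttbk1, -0.29). Genes of microtubule severing and of tubulin folding or modification were measured in 13 of 16, without Fign, Fignl1 and Tbca. They gave 0 and 0, 0 and 0, and 0 and 1 in footprinting (Tbcc, -0.26), 0 and 2 (lowest Katna1, -0.63), 0 and 0, and 0 and 0 in RNA-Seq, and 2 and 0 (highest Katna1, 0.59), 0 and 1 (Spast, -0.40), and 0 and 4 (lowest Tbcd, -0.33) in TE. For both lists, the shares of all transcripts past 0.25, up and down in the same order, were 3.32% and 3.21%, 3.67% and 3.35%, and 8.39% and 7.01% in footprinting. In RNA-Seq they were 4.02% and 15%, 14.2% and 2.59%, and 12% and 13.4%, and in TE 17% and 5.24%, 1.48% and 13.2%, and 18.1% and 15%. In GS/DA LRRK2 TG, 16 of the 19 tau kinases and phosphatases could be tested for footprinting and TE and 18 for RNA-Seq. No gene of the lists that was tested was called by limma in GS/DA LRRK2 TG or LRRK2 KO, with or without the block.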

How the data were processed

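The authors aligned the reads to mm9 with TopHat 2.0.11 and Bowtie2 2.2.2, counted reads in coding sequence per gene, with isoforms merged, left out transcripts with few reads and deposited group means normalized with DESeq 1.20, a signal without an SD. Tables were normalized separately, so every value was compared within its table. The folding energy of the 5′UTR, another value of the deposited tables, is in kcal/mol. The deposited TE, TE difference and z-score columns hold the authors' own comparisons and were not used.

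TE was computed with a pseudocount of 0. With 2 libraries, each mean combines 2 whole read numbers scaled by the libraries' size factors, and a transcript was resolved where a single pair of whole numbers fitted. The recovery, in Python 3.11.15, was tested on simulated data. Matching of A and B between groups rests on the shared difference between libraries, since the recovered libraries carry no replicate number. limma 3.58.1 (R 4.3.3) was fitted to log2(normalized reads + 10), each assay alone and, for TE, with the interaction of genotype and assay. Both assays came from the same lysates, but it is not known here which libraries of the assays share a pool, so the TE fits and ranges treat them as independent. Alternatives were other pseudocounts, sizes of change, filters, scaling, blocks and leaving out each library. Coding lengths and GC content came from the NCBIM37 annotation, with the coding exons of all isoforms of a gene merged. They were matched for 97.2% of transcripts in the transgenic tables and 97.0% in the LRRK2 KO table.

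The genes named are the 10 members by current or older symbol, Lrrk2, the highest and lowest member of each of the lists of other microtubule proteins, tau kinases and phosphatases, and severing and tubulin folding or modification, markers of cell types, and the 3 transcripts nearest to Mapt. The members and lists were chosen with earlier results of these data known. Striatal footprinting libraries beyond those behind the means and ventral midbrain libraries were not analysed here. Some genes of these lists are not reported here by name.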

Additional observations from a re-analysis of the deposited data

How the results depend on the processing

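The median changes of the 10 genes were recomputed with a pseudocount of 10, with the median of all transcripts set to 0, with a filter on low group means, with 1 transcript per symbol, from recovered libraries and as means over genes. From recovered libraries, the GS/DA LRRK2 TG values covered only the genes resolved, 7 for footprinting and TE and 9 for RNA-Seq. All 51 of the recomputed values differed from those reported by less than the spread between libraries. Except for RNA-Seq in GS/DA LRRK2 TG, that spread was larger than the size of the median itself. For RNA-Seq in LRRK2 KO it was 0.36, beside a median of -0.19. Lying within it therefore does not show stability of the recomputed values. The sign of the TE median, near 0 in the transgenic comparisons, turned in 3 of them: from 0.01 to -0.01 in GS LRRK2 TG and from -0.05 to 0.01 in GS/DA LRRK2 TG with the median of all transcripts set to 0, and to 0.01 in GS/DA LRRK2 TG from recovered libraries. The last of these also left out Map2, Map1a and Map1b, which were not resolved, so it changed the genes as well as the values. Leaving out each library moved the medians more. The ranges were 0.00 to 0.04 for footprinting, -0.10 to 0.24 for RNA-Seq and -0.17 to 0.14 for TE in GS LRRK2 TG, 0.08 to 0.16, -0.25 to 0.23 and -0.19 to 0.21 in GS/DA LRRK2 TG, and -0.20 to 0.12, -0.30 to 0.02 and 0.01 to 0.40 in LRRK2 KO. A lone library is then set against a mean of 2, so these ranges include the difference between libraries A and B. In GS/DA LRRK2 TG, a value without a library covers only the genes resolved in that library's group. These were 8 for non-TG control footprinting, 9 for GS/DA LRRK2 TG footprinting and 9 for GS/DA LRRK2 TG RNA-Seq.

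The count of genes past 0.25 depended on the size chosen. With 0.15 it was 2 for RNA-Seq and 3 for TE in GS LRRK2 TG, 3 for footprinting and 6 for RNA-Seq in GS/DA LRRK2 TG, and 1 for footprinting, 6 for RNA-Seq and 8 for TE in LRRK2 KO. With 0.4 it was 0 for TE in GS LRRK2 TG, 0 for footprinting, 2 for RNA-Seq and 0 for TE in GS/DA LRRK2 TG, and 1 for RNA-Seq and 1 for TE in LRRK2 KO. With the median of all transcripts set to 0, it was 1 for TE and 3 for RNA-Seq in GS/DA LRRK2 TG and 3 for TE in LRRK2 KO. The shares of all transcripts in these settings were not computed, so these counts do not set the 10 genes apart from other transcripts. For TE in LRRK2 KO, the quartiles of all transcripts were -0.16 and 0.19, beyond 0.15 on both sides.

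No paired analysis was possible because the recovered libraries carry no replicate number by which the labels would pair them. Replicate numbers were not inferred from read depth. A block for libraries matched from the data, by their shared difference, gave 25 calls for footprinting in GS/DA LRRK2 TG, and 15 for footprinting and 11 for RNA-Seq in LRRK2 KO, in place of 0. In LRRK2 KO the fits of footprinting and of RNA-Seq with this block gave all transcripts the same standard error, so their p-values rest on 1 pooled spread. The opposite matching, chosen after seeing the data, gave 5 calls for GS/DA LRRK2 TG footprinting and 0 elsewhere. Neither called any member tested, and pseudocounts of 1 and 50 and the filter on group means called 0 transcripts in each limma fit, with 0 to 158 at an unadjusted p under 0.05. Calls for GS LRRK2 TG were not run, because its control means were not resolved.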
